A study of Mus musculus with 10 samples.

Results

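Pachytene spermatocytes were compared with leptotene/zygotene spermatocytes of the mouse testis by the signals of 4 microarrays, of 10 arrays in the series. The samples were chosen by their titles alone. The pachytene cells were fraction 8 of a Percoll density gradient from testes of 15-day-old C57BL/6 males, and the leptotene/zygotene cells were fraction 5 from 12-day-old C57BL/6 males. The labels name no mutation or drug treatment in either group, and all testes had been dissociated with hyaluronidase, trypsin and collagenase. Each group had 1 array on each of 2 designs that carry different probe sets, so a gene was read from 1 array per group and has no p-value, apart from the 100 probe sets that both designs share. The other groups (spermatogonia of fraction 2 at 8 days of age, and at 15 days whole testis and a mixture of 11 somatic tissues) describe where else a gene is expressed and share in the spread of the limma fit. The sources used here do not say whether the arrays of a group came from separate animals.

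In leptotene and zygotene, programmed DNA breaks form and homologous chromosomes begin to pair. In pachytene they are fully paired by the synaptonemal complex, the breaks are repaired into crossovers, and the cells transcribe many genes whose proteins are used only later, in the spermatid and the sperm. The X and Y chromosomes, which lack a full partner, are gathered into a silenced sex body at the same stage, a process known as meiotic sex chromosome inactivation.

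Signals are given on a linear scale after each array was scaled to a shared 2% trimmed mean. Of 18194 genes read, 13530 were above the signal floor (87.3 on the first design, 47.0 on the second) in pachytene, leptotene/zygotene or both. A gene is said to have risen or fallen where it was at least 4-fold higher or lower in pachytene. From 100 probe sets present on both designs, a log2 difference had an error of 0.21 and a 95% limit of 0.41. A gene beyond that limit is called higher or lower. The limit describes how far these 100 probe sets repeated between arrays that may share an RNA sample. Whether it holds for genes near the floor was not tested. A fold against a signal below the floor is computed against the floor and written as a lower bound. In such fractions fewer cells of a type and less RNA per cell cannot be told apart.

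Rises and falls were about equal in number, but the rises were far larger. In all, 1186 genes rose (8.77%) and 1266 fell (9.36%), and the median log2 difference over all genes was -0.23. At 8-fold or more there were 587 genes higher and 136 lower in pachytene, at 16-fold or more 318 and 3, and at 32-fold or more 144 and 0. Of the genes that rose, 60.1% were above the floor in the somatic mixture and 58.8% in spermatogonia, against 86.3% and 86.7% of all genes measured. In whole testis 97.6% of them were above the floor, against 90.3% of all genes measured. Of the genes that fell, 89.9% were above the floor in the somatic mixture and 99.9% in spermatogonia. Of the genes read from the first design 624 rose (6.89%) and 929 fell (10.3%), and of those from the second 562 rose (12.6%) and 337 fell (7.54%).

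The number of falls depended on the scaling of the arrays. Quantile normalization gave 1221 rises and 843 falls. Median scaling gave 1514 and 750, scaling to the shared probe sets 1549 and 606, and the signals as deposited 1191 and 1582. The median log2 difference over all genes measured, -0.23 in the main scaling, was -0.013 with quantile normalization. It was positive with median scaling (0.12) and shared probe set scaling (0.17), and -0.23 as deposited. Under all 5 scalings 974 genes rose (7.20%) and 573 fell (4.24%), and these counts, chosen after seeing the data, are given below beside the main ones.

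**Figure D1:**
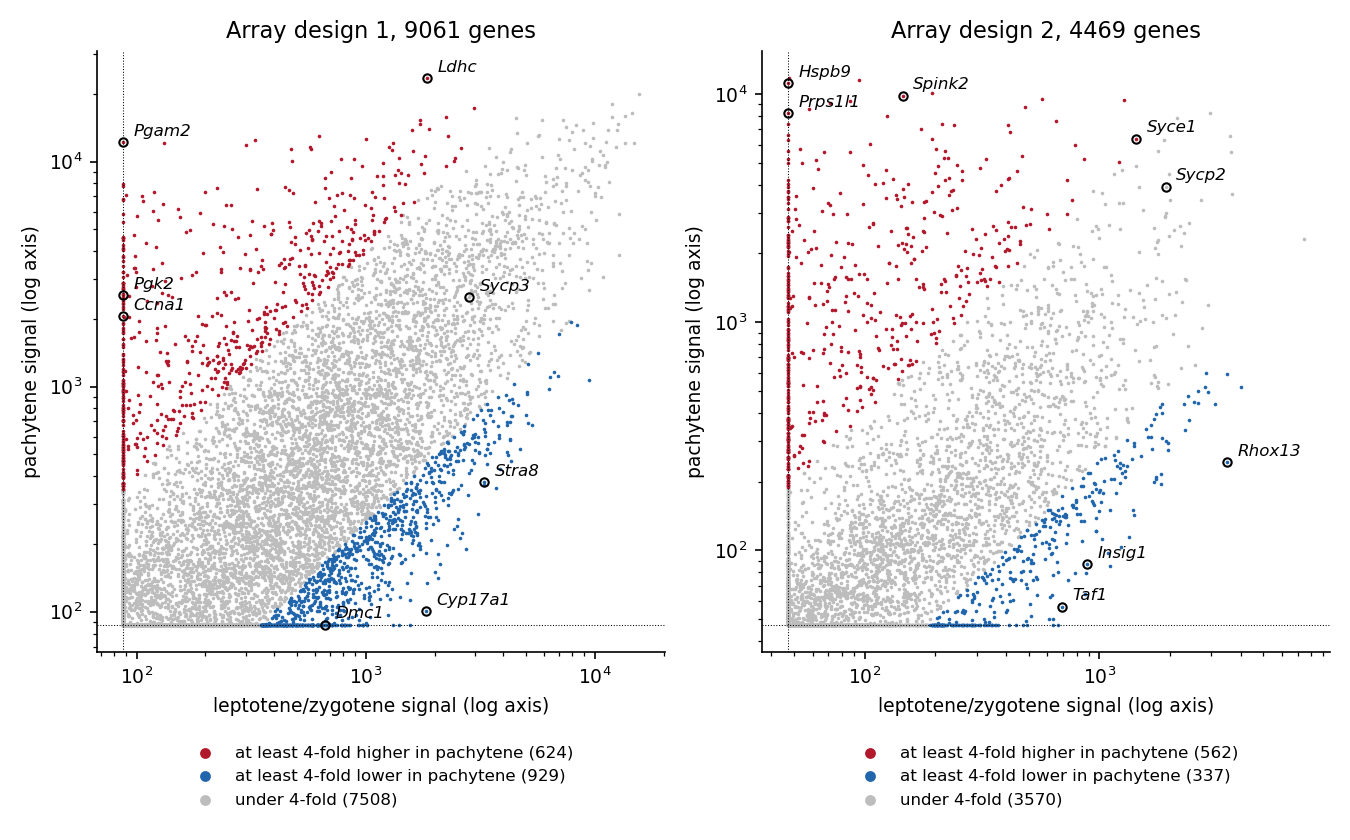
Signal in pachytene (vertical, log axis) against signal in leptotene/zygotene (horizontal, log axis), 1 point per gene measured, for each array design. Signals below the floor (dotted lines) are drawn at the floor, red genes were at least 4-fold higher and blue genes at least 4-fold lower in pachytene, and the red points lie farther from the diagonal than the blue ones.

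The labelled stages were described by marker genes. Their lists were chosen with earlier results of these data known, so they are not an independent check of the labels. Hspb9, a small heat shock protein gene of the testis, had a signal of 11173 in pachytene against 1.99 (below the floor) in leptotene/zygotene, at least 238-fold higher. Ccna1, the cyclin A needed for male meiosis, had 2062 in pachytene against 23.0 (below the floor) in leptotene/zygotene, at least 23.6-fold higher. Pgk2, the phosphoglycerate kinase that replaces an X-linked enzyme in spermatocytes, had 2548 in pachytene against 10.1 (below the floor) in leptotene/zygotene, at least 29.2-fold higher. All 3 were above the floor in the pachytene fraction and below it in the leptotene/zygotene fraction. Dmc1, the recombinase of early meiotic prophase, went the other way, with 87.5 in pachytene against 668 in leptotene/zygotene, so that pachytene lay at the floor and Dmc1 was 7.63-fold lower. Of 27 measured pachytene markers 22 rose and none fell, also under all 5 scalings, with a median log2 difference of 4.50. Spink2, an acrosomal protease inhibitor, had 9834 in pachytene against 145 in leptotene/zygotene. Crisp2, a secreted protein later stored in the acrosome, had 6062 in pachytene against 118 in leptotene/zygotene. The pachytene marker Sycp3, a lateral element protein of the synaptonemal complex that is made from leptotene on, had 2501 in pachytene against 2828 in leptotene/zygotene and lay within the error limit.

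Markers of the earlier stages were lower, and markers of the later stage were mostly at background. Of 17 measured leptotene and zygotene markers 7 fell, 4 of them under all 5 scalings, and Spo11 rose (median -0.97). Rhox13, an X-linked homeobox gene, had 244 in pachytene against 3492 in leptotene/zygotene. Tex15, needed for loading recombinases on DNA breaks, had 224 in pachytene against 2638 in leptotene/zygotene. Stra8, induced by retinoic acid at meiotic entry, had 376 in pachytene against 3295 in leptotene/zygotene. Of 28 measured spermatogonial markers, which share Rhox13 and Stra8 with that list, 15 fell, 9 of them under all 5 scalings, and Dmrtb1 rose (median -2.12). Of 27 spermatid markers on the arrays 14 were below the floor in both fractions, among them Prm2, Tnp1 and Tnp2, which package sperm chromatin. Tssk1, a kinase of spermatids, rose and had 553 in pachytene against 79.8 (below the floor) in leptotene/zygotene, and Tekt5, a tektin of the flagellum, rose and had 269.8 in pachytene against 3.27 (below the floor) in leptotene/zygotene.

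The promoter windows of 2 of these markers, both at background in leptotene/zygotene, are shown as examples. Only windows that hold the marked motif could be shown, and Pgk2, also at background there, is not shown. The windows run from 250 bases before to 50 bases after the start given by RefSeq (build GRCm38.p6). Capitals mark CAACNG (N is any base), the core of the site bound by MYB proteins, read on either strand, and A-MYB (Mybl1) is known as a regulator of pachytene genes in the mouse.
Hspb9 (chr11:100713679-100713978, plus strand): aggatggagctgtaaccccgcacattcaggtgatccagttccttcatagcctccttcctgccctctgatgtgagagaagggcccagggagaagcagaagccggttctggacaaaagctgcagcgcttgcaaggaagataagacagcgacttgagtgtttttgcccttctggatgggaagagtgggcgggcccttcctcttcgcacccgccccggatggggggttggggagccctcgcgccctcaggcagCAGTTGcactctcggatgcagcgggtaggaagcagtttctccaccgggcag
Ccna1 (chr3:55055006-55055305, minus strand): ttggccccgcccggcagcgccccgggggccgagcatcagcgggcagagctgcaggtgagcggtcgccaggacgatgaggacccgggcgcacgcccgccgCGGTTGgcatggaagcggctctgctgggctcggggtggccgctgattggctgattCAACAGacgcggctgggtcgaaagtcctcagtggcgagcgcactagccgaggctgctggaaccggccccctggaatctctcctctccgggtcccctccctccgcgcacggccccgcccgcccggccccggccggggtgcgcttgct
Hspb9 had 1 match, which begins at the base before the start, and Ccna1 had 2. Mybl1 itself had a signal of 438 in pachytene against 143 in leptotene/zygotene, a log2 difference of 1.61.

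This core was more frequent in windows of genes that rose. It was present in 46.7% of 1223 windows of genes that rose and in 56.3% of 300 windows of genes at least 16-fold higher. Windows of genes that fell held it in 29.7% of 1342 cases, those of all genes measured in 33.7% of 13895, and all windows in 35.0% of 32851. Windows were found for 968 of the 1186 genes that rose and 1047 of the 1266 that fell. The sets differ in base composition: the median GC content was 57.7% in windows of genes that rose, 62.0% in those of genes that fell and 60% in those of all genes measured. TAACNG, the other form of the core, was present in 26.7% of windows of genes that rose, 16.4% of those of genes that fell and 19.97% of those of all genes measured. Other motifs were searched as well. TGACGTCA was in 2.94% of windows of genes that rose and 2.86% of those of all genes measured, and TGACGT in 9.16% and 10.8%. CCAAT was in 40.5% and 37.3% of these windows, and GGGCGG in 48.6% and 58.7%. A match is a description of letters, and binding was not measured here.

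Markers of the somatic cells of the testis were mostly lower in pachytene. Of 23 measured Sertoli markers 11 fell, 8 of them under all 5 scalings, and 21 were lower beyond the limit (median -1.75). Their summed signal was 20453 in pachytene against 67972 in leptotene/zygotene. Inhbb, a subunit of inhibin B, had 134 in pachytene against 1845 in leptotene/zygotene. Wt1, a transcription factor of Sertoli cells, had 124 in pachytene against 1090.1 in leptotene/zygotene. Among 9 measured Leydig markers 4 fell (median -1.95, summed signal 8350.3 in pachytene against 13655 in leptotene/zygotene), and Cyp17a1, an enzyme of androgen synthesis, had 101 in pachytene against 1838 in leptotene/zygotene. The defining Sertoli marker Amh and the Leydig marker Cyp11a1 were below the floor in pachytene, at 38.4 and 7.37. Their lists nonetheless kept signal there: Cst12, a Sertoli cystatin, had 5823 in pachytene against 12771 in leptotene/zygotene.

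Other somatic markers did not move as one. Of 20 measured peritubular, stromal and vascular markers 2 fell (10%, near the 9.36% of all genes), neither under all 5 scalings. Beyond the limit 15 were lower (median -0.98, summed signal 20138 in pachytene against 35496 in leptotene/zygotene). Markers of macrophages and blood were opposite, with 13 of 17 higher and none past 4-fold (median 0.69, summed signal 6838 in pachytene against 3592 in leptotene/zygotene). The complement gene C1qc had 481 in pachytene against 149 in leptotene/zygotene. The part of these cells in the falls below was not tested.

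RNA controls differed between the fractions as well. The ratio of the 3' to the 5' probe set of the Gapdh control was 1.49 and 1.52 in pachytene (designs 1 and 2) against 1.07 and 1.12 in leptotene/zygotene. For beta-actin it was 2.41 and 2.88 in pachytene against 3.18 and 3.13 in leptotene/zygotene. The 3' probe set of 18S ribosomal RNA read 427 and 342 in pachytene against 1801 and 1814 in leptotene/zygotene. The part of these differences in the results was not tested.

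**Figure D2:**
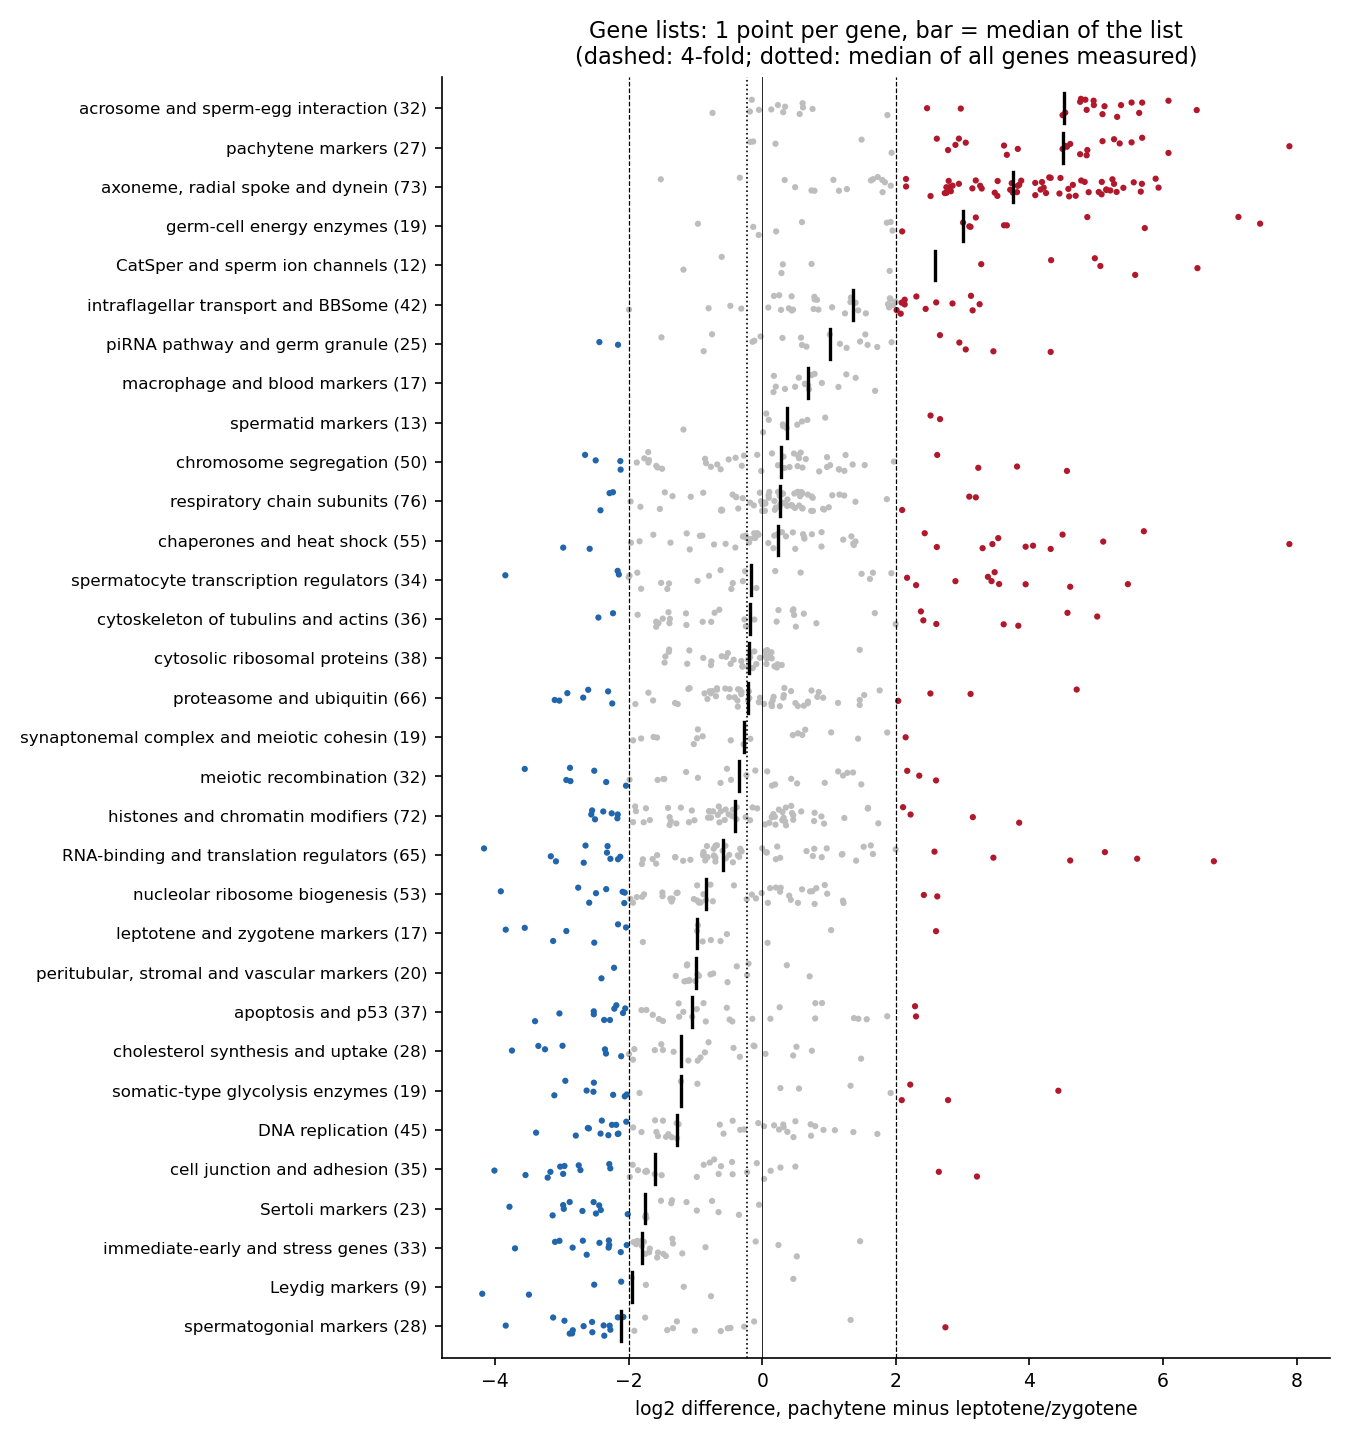
Log2 difference (pachytene minus leptotene/zygotene, horizontal) of every measured member of 32 gene lists, 1 point per gene, with the number measured in brackets and the median as a black bar. Red points were at least 4-fold higher, blue points at least 4-fold lower, and the lists run from acrosome genes (median 4.52) to spermatogonial markers (median -2.12).

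Most genes listed for the axoneme of the sperm tail rose. The axoneme is the microtubule core of the flagellum, with dynein arms that drive its beat and radial spokes that control it. Of 78 such genes on the arrays 73 were measured, 57 rose, none fell, and 70 were higher beyond the limit (median 3.75). The same number rose under all 5 scalings. Ttc25, which docks the outer dynein arms, had 2874 in pachytene against 40.7 (below the floor) in leptotene/zygotene, at least 61.1-fold higher. Cfap52, a protein inside the microtubule doublets, had 2789 in pachytene against 25.1 (below the floor) in leptotene/zygotene, and Cfap45, another of that class, had 2513 in pachytene against 48.9 in leptotene/zygotene. Tektin genes moved alike: Tekt3 had 2671 in pachytene against 52.5 in leptotene/zygotene and Tekt1 had 3804 in pachytene against 98.8 in leptotene/zygotene. Dnaaf1, which assembles dyneins in the cytoplasm before the flagellum exists, had 11834 in pachytene against 299 in leptotene/zygotene.

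Cfap206 and Cfap70, both of the axoneme, had log2 differences of 5.56 and 5.41. Heavy chains of the dyneins rose too, among them Dnah12 (5.08), Dnah2 (4.65), Dnah8 (4.595) and Dnah6 (4.58). Dnah8, a heavy chain of the outer arm in sperm, had 11422 in pachytene against 472 in leptotene/zygotene. The exceptions were few. Efhc2, an X-linked gene, was the 1 member lower beyond the limit, with 10.9 (below the floor) in pachytene against 135 in leptotene/zygotene. Dnah9, a heavy chain of cilia in other organs, had 92.4 in pachytene against 53.7 in leptotene/zygotene, and Dnah5 and Dnah11, also of such cilia, were below the floor in both fractions.

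The MYB core was present in 36 of 52 promoter windows of the axoneme genes that rose (69.2%). Windows of Tekt1, which has 2, and of Dnah8 are shown as examples with 1 and 3 matches, in capitals.
Tekt1 (chr11:72361247-72361546, minus strand): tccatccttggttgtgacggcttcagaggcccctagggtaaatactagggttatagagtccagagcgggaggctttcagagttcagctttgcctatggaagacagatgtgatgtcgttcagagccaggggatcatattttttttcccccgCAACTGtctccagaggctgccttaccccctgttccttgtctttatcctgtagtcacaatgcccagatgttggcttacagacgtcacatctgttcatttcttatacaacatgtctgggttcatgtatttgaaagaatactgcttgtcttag
Dnah8 (chr17:30626686-30626985, plus strand): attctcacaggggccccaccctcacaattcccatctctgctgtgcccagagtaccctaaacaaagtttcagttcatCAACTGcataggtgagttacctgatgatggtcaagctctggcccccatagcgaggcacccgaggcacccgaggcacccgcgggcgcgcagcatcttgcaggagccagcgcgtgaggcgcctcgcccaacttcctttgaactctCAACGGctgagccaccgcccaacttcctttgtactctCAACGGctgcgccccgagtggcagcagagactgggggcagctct
The first match in each window lay 100 and 174 bases before the start.

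Intraflagellar transport, which carries cargo along a growing axoneme, had a smaller median difference. Of 42 measured genes of the transport particles and the BBSome, a cargo adaptor complex, 33 were higher and 12 rose, 6 of them under all 5 scalings (median 1.36). Ift122 and Ift140, of the complex that moves toward the cell body, had 1306 in pachytene against 137 in leptotene/zygotene and 8588 in pachytene against 1192 in leptotene/zygotene. Ift172, of the complex that moves toward the tip, had 2876 in pachytene against 324 in leptotene/zygotene, 8.88-fold higher. Ift22, a small GTPase of that complex, had 4313 in pachytene against 494 in leptotene/zygotene, and Ift80 was 5.45-fold higher. Bbs7, a BBSome subunit, had 1004 in pachytene against 165 in leptotene/zygotene. Ttc21b and Ttc26, also of the transport particles, were 4.95-fold and 4.39-fold higher, and neither reached 4-fold under all 5 scalings. Tulp3, which brings membrane proteins into cilia, had 92.9 in pachytene against 370.0 in leptotene/zygotene and did not reach 4-fold.

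Ciliary genes are known targets of RFX transcription factors, which bind the X-box. The X-box, searched as GTTNCC, 2 bases of any kind and GGNAAC on either strand, was present in 2 of 10 windows of the transport and BBSome genes that rose, in 1.55% of windows of all genes that rose, in 0.373% of those of genes that fell, in 0.597% of those of all genes measured and in 0.451% of all windows. It can share bases with the MYB core. The windows that hold it are shown with the X-box in capitals.
Bbs7 (chr3:36613340-36613639, minus strand): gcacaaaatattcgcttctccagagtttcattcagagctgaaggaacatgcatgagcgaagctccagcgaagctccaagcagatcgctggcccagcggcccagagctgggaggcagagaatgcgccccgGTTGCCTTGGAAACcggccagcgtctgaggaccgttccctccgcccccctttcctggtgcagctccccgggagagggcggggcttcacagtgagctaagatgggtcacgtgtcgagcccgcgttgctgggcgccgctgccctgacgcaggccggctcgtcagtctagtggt
Ttc26 (chr6:38381274-38381573, plus strand): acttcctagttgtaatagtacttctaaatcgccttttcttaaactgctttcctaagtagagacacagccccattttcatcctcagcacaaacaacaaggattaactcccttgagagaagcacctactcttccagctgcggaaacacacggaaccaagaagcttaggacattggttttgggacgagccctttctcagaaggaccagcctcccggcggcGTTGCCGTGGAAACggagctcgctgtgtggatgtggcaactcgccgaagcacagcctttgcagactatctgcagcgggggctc
It was in 0 of 52 windows of axoneme genes that rose, which were found for 47 of those 57 genes. The shorter motif GTTGCCA, searched on either strand, was in 7 of these 52 windows (13.5%), in 8.26% of windows of all genes that rose, in 2.91% of those of genes that fell, in 4.12% of those of all genes measured and in 4.38% of all windows. Rfx2, the RFX factor of spermatocytes, rose and had 943 in pachytene against 81.2 (below the floor) in leptotene/zygotene. Rfx4 rose as well, with 525 in pachytene against 26.5 (below the floor) in leptotene/zygotene, while Rfx1 had 105 in pachytene against 420.3 in leptotene/zygotene.

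Acrosome and sperm-egg interaction genes split into a block that rose and a block still at background. Of 46 on the arrays 14 were below the floor in both fractions, and of the 32 measured 19 rose, also under all 5 scalings, and none fell (median 4.52). The list shares Spink2, Crisp2 and others with the pachytene markers. Dkkl1, an acrosomal protein, had 7928 in pachytene against 69.4 (below the floor) in leptotene/zygotene, at least 90.8-fold higher. Zpbp2, which binds the egg coat, had 4891 in pachytene against 97.8 in leptotene/zygotene. Spata16 and Dpy19l2, both needed to form the acrosome, had 2172 in pachytene against 17.1 (below the floor) in leptotene/zygotene and 1641 in pachytene against 25.0 (below the floor) in leptotene/zygotene. Adam5, of the ADAM family on the sperm surface, had 3614 in pachytene against 51.3 (below the floor) in leptotene/zygotene, and Spesp1, of the equatorial segment, had 4356 in pachytene against 109.5 in leptotene/zygotene. Those still at background included Spam1, a hyaluronidase, and Eqtn. Izumo1, the sperm ligand for fusion, was near the floor in both fractions, with 48.6 in pachytene against 54.1 in leptotene/zygotene.

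The sperm calcium channel showed the same split. Of 12 measured CatSper subunits and sperm ion channel genes 6 rose, under all 5 scalings, and none fell. Catsperz, an accessory subunit, had 12039 in pachytene against 132 in leptotene/zygotene, 91.5-fold higher. Catsperd, another accessory subunit, had 3295 in pachytene against 98.6 in leptotene/zygotene, and Catsper2, which forms part of the pore, had 3916 in pachytene against 195 in leptotene/zygotene. The pore subunit genes Catsper1 and Catsper3 did not follow, with 108 in pachytene against 39.6 (below the floor) in leptotene/zygotene and 45.4 (below the floor) in pachytene against 106 in leptotene/zygotene. Adcy10, the soluble adenylyl cyclase of sperm, had 528 in pachytene against 54.4 in leptotene/zygotene. Slco6c1 and Slco6d1, organic anion transporters of the testis, had 2255 in pachytene against 10.6 (below the floor) in leptotene/zygotene and 1484 in pachytene against 13.6 (below the floor) in leptotene/zygotene.

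Of 19 measured energy enzymes listed as germ-cell forms 11 rose and none fell, 10 of them under all 5 scalings. In this list 3 lay within the limit and 1 was lower beyond it (median 3.01). The name is that of the list, and 11 of the 19 were above the floor in the somatic mixture. Pgam2 read 4694 there, Cox6b2 676 and Slc2a3 513. Prps1l1, which makes the sugar phosphate donor for nucleotides, had 8246 in pachytene against 44.3 (below the floor) in leptotene/zygotene, at least 175-fold higher. Pgam2, the muscle and testis form of phosphoglycerate mutase, had 12219 in pachytene against 14.6 (below the floor) in leptotene/zygotene, at least 140.0-fold higher. Gk2, a glycerol kinase, had 4625 in pachytene against 46.1 (below the floor) in leptotene/zygotene. Ldhc, the lactate dehydrogenase of sperm, had 23494 in pachytene against 1855 in leptotene/zygotene and the highest pachytene signal of all genes that rose. Pdha2, the autosomal form of a pyruvate dehydrogenase subunit, had 4753 in pachytene against 387 in leptotene/zygotene. Cox8c and Cox6b2, testis forms of cytochrome oxidase subunits, had 12087 in pachytene against 1317 in leptotene/zygotene and 11233 in pachytene against 1310.0 in leptotene/zygotene. Slc2a3, a glucose transporter, had 13794 in pachytene against 1588 in leptotene/zygotene.

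Of 19 measured enzymes of the somatic type 8 fell and 4 rose (5 and 2 under all 5 scalings, median -1.22). Slc16a1, which exports lactate, had 166 in pachytene against 1436 in leptotene/zygotene, and Slc2a1, a glucose transporter, had 77.1 (below the floor) in pachytene against 673 in leptotene/zygotene. Pfkl, the liver phosphofructokinase, had 101 in pachytene against 625 in leptotene/zygotene, whereas Pfkp, the platelet form, rose and had 2404 in pachytene against 111 in leptotene/zygotene. Pgk1, the X-linked phosphoglycerate kinase, had 523 in pachytene against 3011 in leptotene/zygotene, and Pkm, the muscle pyruvate kinase, was 5.73-fold lower. Ldha was an exception among lactate dehydrogenases of the body, with 11126 in pachytene against 1617 in leptotene/zygotene.

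Differences were compared over 31 pairs, both measured, of a gene listed as a germ-cell form and a related gene listed as its counterpart. The somatic mixture did not bear out these names in every pair. Among others, the germ-cell genes Pgam2 read 4694, Cstf2t 762, Cox6b2 676, Eif1a 431, Tbpl1 356, Hspa2 263 and Utp14b 217 there. The counterpart Tktl1 was below the floor there, at 2.72. The germ-cell gene had the larger log2 difference in 31 of 31 pairs, and in 21 it was higher and the counterpart lower beyond the limit. In 22 pairs the germ-cell gene rose, in 12 the counterpart fell, and in 9 both did (median 3.10 for the germ-cell genes and -1.76 for the counterparts). The pairs were listed with such differences known, so their direction is a description. Of the 13 autosomal genes paired with an X-linked parent or relative, 7 rose and 9 of the X-linked genes fell. Smc1b and Stag3, of the meiotic cohesins, also have X-linked counterparts and are not among these 13. Prps1l1 rose while the X-linked Prps1 had 276 in pachytene against 1313 in leptotene/zygotene. Cetn1, a centrin, had 7312 in pachytene against 119 in leptotene/zygotene, and its X-linked relative Cetn2 had 127 in pachytene against 794 in leptotene/zygotene. Fam50b had 4578 in pachytene against 63.4 (below the floor) in leptotene/zygotene, and the X-linked Fam50a had 135 in pachytene against 742 in leptotene/zygotene.

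Pairs of 2 autosomal genes also parted. Psma8, the proteasome subunit of spermatocytes, had 3069 in pachytene against 536 in leptotene/zygotene, and Psma7, the subunit it replaces, had 678 in pachytene against 4125 in leptotene/zygotene. Cyct, the testis cytochrome c, had 3077 in pachytene against 720.3 in leptotene/zygotene, and Cycs, the somatic form, had 1908 in pachytene against 7476 in leptotene/zygotene. Eid3, a germ-cell subunit of the SMC5/6 complex, had 9153 in pachytene against 71.2 in leptotene/zygotene, and Nsmce4a, the general form, had 1583 in pachytene against 2466 in leptotene/zygotene. Rises of both members were seen for Ldhc with Ldha, and in the pair Tbpl1 and Tbp, a TATA-binding protein and its relative, both were higher, with 10384 in pachytene against 1398 in leptotene/zygotene and 1167 in pachytene against 369.6 in leptotene/zygotene. Slc25a31 and Eif1a did not rise, at log2 differences of -0.13 and -1.08, and their X-linked relatives Slc25a5 and Eif1ax were at -1.92 and -2.67.

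**Figure D3:**
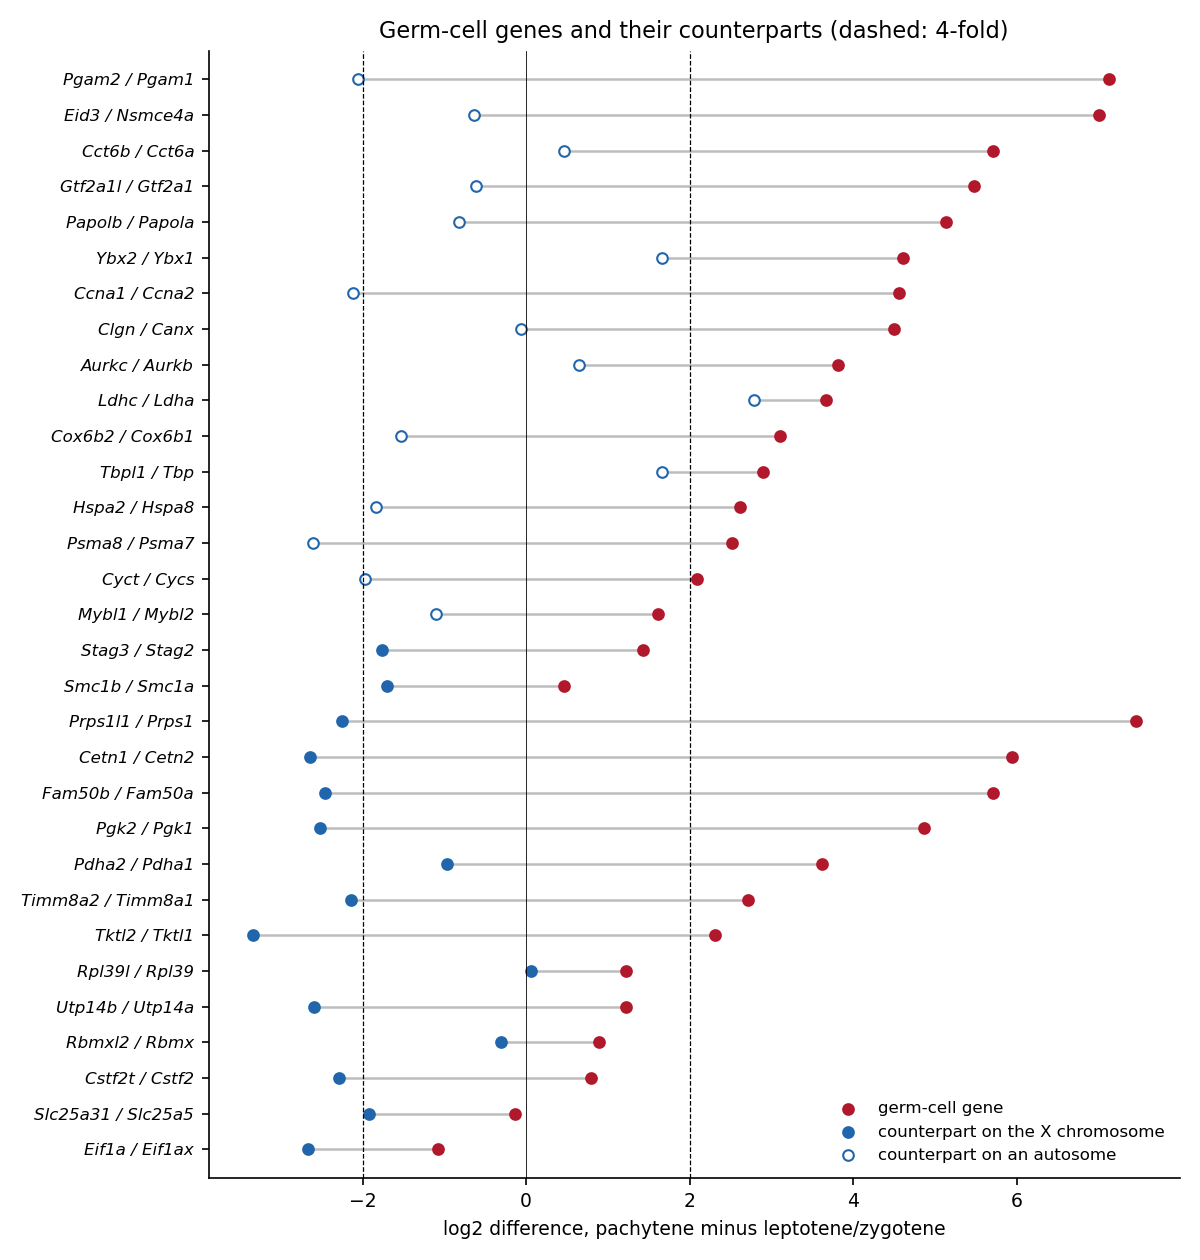
Log2 difference (pachytene minus leptotene/zygotene, horizontal) of 31 germ-cell genes (red) and of their counterparts (blue, filled where X-linked), 1 pair per row. The red point lies to the right of the blue one in every row, and in 9 rows both lie beyond the dashed 4-fold lines on opposite sides.

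Chaperone genes contained both testis forms that rose and mitochondrial forms that fell. Of 55 measured 12 rose (21.8%, against 8.77% of all genes) and 2 fell (3.64%, against 9.36%), all under all 5 scalings. The median (0.23) changed sign between scalings. Cct6b, the testis subunit of the chaperonin TRiC, had 4581 in pachytene against 86.9 (below the floor) in leptotene/zygotene, and the general subunit Cct6a had 4318 in pachytene against 3141 in leptotene/zygotene. Dnajb3 and Dnajb13, J proteins of the testis, had 4171 in pachytene against 121 in leptotene/zygotene and 1742 in pachytene against 39.9 (below the floor) in leptotene/zygotene. Clgn, the calmegin that folds ADAM proteins in the endoplasmic reticulum, had 7586 in pachytene against 336 in leptotene/zygotene. Bag5, a cochaperone of HSP70, was 16.6-fold higher. Hsf5, a heat shock factor of spermatocytes, had 4762 in pachytene against 309 in leptotene/zygotene. Hspd1 and Hspe1, which form the mitochondrial chaperonin, had 695 in pachytene against 4164 in leptotene/zygotene and 676 in pachytene against 5327 in leptotene/zygotene.

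Of 65 measured RNA-binding genes 6 rose, under all 5 scalings, a share near that of all genes, and 10 fell, 6 of them under all 5 scalings (median -0.59). Pabpc6 and Pabpc2, intronless poly(A)-binding protein genes, had 5766 in pachytene against 53.1 in leptotene/zygotene and 4273 in pachytene against 42.9 (below the floor) in leptotene/zygotene. Papolb, the poly(A) polymerase of the testis, had 3058 in pachytene against 63.9 (below the floor) in leptotene/zygotene. Ybx2, which stores mRNA in germ cells, had 5284 in pachytene against 216 in leptotene/zygotene, and Ddx25, a helicase of germ granules, had 6621 in pachytene against 601 in leptotene/zygotene. Elavl2, a binder of AU-rich RNA, had 85.1 (below the floor) in pachytene against 1565 in leptotene/zygotene, at least 17.9-fold lower. The X-linked genes Tex13b, Nxf3, Eif1ax and Nxf2 fell as well, with log2 differences of -3.16, -3.09, -2.67 and -2.64, and the Y-linked Eif2s3y was at least 5.01-fold lower.

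Among 34 measured transcription regulators of spermatocytes 10 rose (29.4%, against 8.77% of all genes) and 3 fell (8.82%, near the 9.36% of all genes). Under all 5 scalings 8 rose and 1 fell, and the sign of the median (-0.17) changed between scalings. Gtf2a1l, a germ-cell subunit of the general factor TFIIA, had 5502 in pachytene against 124 in leptotene/zygotene. Ovol2, a zinc finger factor, had 1019.9 in pachytene against 75.5 (below the floor) in leptotene/zygotene. Brdt, the testis bromodomain protein, had 1417 in pachytene against 136 in leptotene/zygotene. The 3 that fell, Taf7l, Scml2 and Tsx, are all X-linked, and Taf7l, a germ-cell subunit of TFIID, had 190.3 in pachytene against 2735 in leptotene/zygotene.

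Of 25 measured genes listed for piRNAs and germ granules 5 rose (20%, against 8.77% of all genes), under all 5 scalings (median 1.01). In the same list 2 fell (8%, near the 9.36% of all genes), neither under all of them. The 5 that rose include Dnajb13, which the list holds although it is described above as a J protein of the testis. Other leading members were Ddx25, described above, and Piwil1, the PIWI protein that binds pachytene piRNAs, with 3527 in pachytene against 427 in leptotene/zygotene. Tdrd7, a Tudor domain protein, had 5706 in pachytene against 737 in leptotene/zygotene, and Pld6, which cuts piRNA precursors at mitochondria, had 1724 in pachytene against 273 in leptotene/zygotene. Btbd18, a nuclear factor for piRNA precursor transcription, had 95.9 in pachytene against 519 in leptotene/zygotene, and Dazl, which binds germ-cell transcripts, had 787 in pachytene against 3514 in leptotene/zygotene.

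Synaptonemal complex genes mostly stayed under 4-fold, while some recombination genes rose and more fell. Of 19 measured synaptonemal complex and meiotic cohesin genes only Syce1 reached 4-fold (6378 in pachytene against 1439.5 in leptotene/zygotene), and not under all 5 scalings. Trip13, which removes HORMA proteins from paired axes, had 334 in pachytene against 1273 in leptotene/zygotene, and Rec8, the meiotic kleisin, had 4.79 (below the floor) in pachytene against 269 in leptotene/zygotene. Within recombination 3 of 32 rose (9.38%), a share near that of all genes (8.77%). In the same list 7 fell (21.9%, against 9.36% of all genes). Under all 5 scalings 2 rose and 4 fell (6.25% and 12.5%, against 7.20% and 4.24% of all genes). Spo11, which makes the breaks, had 1362 in pachytene against 224 in leptotene/zygotene, higher in the later stage. Psmc3ip, a cofactor of the recombinases, had 4472 in pachytene against 876 in leptotene/zygotene. Hsf2bp, which brings BRCA2 to meiotic breaks, had 1544 in pachytene against 343 in leptotene/zygotene. Tex11, an X-linked crossover protein, had 40.1 (below the floor) in pachytene against 641 in leptotene/zygotene, and Atm, the kinase that limits breaks, had 91.3 in pachytene against 668 in leptotene/zygotene. The medians of both lists (-0.28 and -0.35) changed sign between scalings.

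Chromosome segregation, the process named in the study's title, had members on both sides. Of 50 measured genes 4 rose, under all 5 scalings, and 4 fell, 2 of them under all 5 scalings, a share near that of all genes. Beside Ccna1, Aurkc, the Aurora kinase of meiosis, had 1729 in pachytene against 123 in leptotene/zygotene, and Aurka had 4622 in pachytene against 491 in leptotene/zygotene. Fzr1, an activator of the anaphase promoting complex, had 1682 in pachytene against 274 in leptotene/zygotene. Ccnb2, a B-type cyclin, had 3389.8 in pachytene against 865 in leptotene/zygotene and Pttg1, securin, had 13331 in pachytene against 4603 in leptotene/zygotene, both short of 4-fold. Cenpa, the centromeric histone, had 197 in pachytene against 1241 in leptotene/zygotene. Fbxo5, an inhibitor of the anaphase promoting complex, had 15.9 (below the floor) in pachytene against 265 in leptotene/zygotene, and Ccna2, the mitotic cyclin A, had 344 in pachytene against 1496 in leptotene/zygotene.

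Replication genes fell in part, and ribosomal protein genes did not. Of 45 measured DNA replication genes 12 fell, 4 of them under all 5 scalings, and none rose, with 27 lower and 9 higher beyond the limit (median -1.27). Ung, a uracil glycosylase, had 118 in pachytene against 1235 in leptotene/zygotene, and Orc6, of the origin recognition complex, had 160.3 in pachytene against 1109 in leptotene/zygotene. Cdt1, a licensing factor, had 263 in pachytene against 1608 in leptotene/zygotene, and Mcm5, of the replicative helicase, had 277 in pachytene against 1669.9 in leptotene/zygotene. Of 53 measured nucleolar genes of ribosome assembly 8 fell and 2 rose, 4 and 2 under all 5 scalings, with 30 lower and 13 higher beyond the limit (median -0.84). Nop56, of the box C/D particles, had 80.5 (below the floor) in pachytene against 1315 in leptotene/zygotene, and Ncl, nucleolin, had 827 in pachytene against 4639 in leptotene/zygotene. Wdr12 and Nop9 rose, with 3179 in pachytene against 517 in leptotene/zygotene and 3580.5 in pachytene against 669 in leptotene/zygotene. None of 38 measured ribosomal protein genes reached 4-fold, 23 lay within the limit, and the sign of their median (-0.20) changed between scalings.

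In 3 broad housekeeping lists the share that rose was below that of all genes (8.77%). The share that fell was near or below that of all genes (9.36%). Of 66 proteasome and ubiquitin genes 4 rose (6.06%) and 7 fell (10.6%), 3 and 5 under all 5 scalings. Of 72 chromatin genes 4 rose (5.56%) and 7 fell (9.72%), 2 and 2 under all 5 scalings. Of 76 respiratory chain genes 3 rose and 3 fell (3.95% each), 2 and 0 under all 5 scalings. Signs of the medians of these 3 lists changed between scalings. Beside Psma8, Ube2u, a ubiquitin-conjugating enzyme, had 3820.2 in pachytene against 146 in leptotene/zygotene, and Usp2, a deubiquitinase, had 6319 in pachytene against 727 in leptotene/zygotene. The sex-linked members led the falls, with Uba1y, a Y-linked activating enzyme, at 172 in pachytene against 1480.0 in leptotene/zygotene, Usp9x, a deubiquitinase, at 87.2 (below the floor) in pachytene against 716 in leptotene/zygotene and Huwe1, a ubiquitin ligase, at 223 in pachytene against 1681 in leptotene/zygotene. Both Uba1y and Usp9x have close copies on the other sex chromosome, whose transcripts the probe sets may also read. Among chromatin genes Kdm4d, a histone demethylase, had 1818 in pachytene against 126 in leptotene/zygotene, and Phf7, a reader and ligase for histones in spermatids, had 15312 in pachytene against 1721 in leptotene/zygotene. Prmt1, an arginine methyltransferase, had 408 in pachytene against 2404 in leptotene/zygotene, and Dnmt3b, a DNA methyltransferase, had 201 in pachytene against 1175 in leptotene/zygotene.

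Immediate-early and stress genes, and genes of cell death, of sterol synthesis and of junctions were lower together with the Sertoli markers. Of 33 measured immediate-early and stress genes 12 fell, 7 of them under all 5 scalings, and none rose (median -1.80), and Gadd45g, Klf6 and Dusp6 had 162 in pachytene against 2113 in leptotene/zygotene, 92.3 in pachytene against 792 in leptotene/zygotene and 53.5 (below the floor) in pachytene against 715 in leptotene/zygotene. Of 37 apoptosis and p53 genes 10 fell and 2 rose, 5 and 0 under all 5 scalings (median -1.05). Cidea, a lipid droplet protein, had 149 in pachytene against 1571 in leptotene/zygotene, and Aifm1, an X-linked mitochondrial flavoprotein, had 89.0 in pachytene against 729 in leptotene/zygotene. Of 28 cholesterol genes 7 fell, 5 of them under all 5 scalings, and none rose (median -1.22). Scap and Insig1, which escort and retain the sterol sensor, had 150.3 in pachytene against 2017 in leptotene/zygotene and 87.1 in pachytene against 888 in leptotene/zygotene, and Msmo1, a demethylase of the pathway, had 81.0 (below the floor) in pachytene against 831 in leptotene/zygotene.

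Of 35 measured junction and adhesion genes 11 fell and 2 rose, 9 and 2 under all 5 scalings (median -1.61). Lsr, of tricellular junctions, had 81.1 (below the floor) in pachytene against 1405 in leptotene/zygotene, and Gja1, connexin 43, had 466 in pachytene against 4316 in leptotene/zygotene. Vcl, vinculin of actin-linked junctions, had 365 in pachytene against 3283 in leptotene/zygotene, and Cldn11, the claudin of the Sertoli barrier, had 203 in pachytene against 1599.7 in leptotene/zygotene. The rises were those of Nectin3, the nectin of the germ cell side, with 4396 in pachytene against 473 in leptotene/zygotene, and Tln1, talin, with 3906 in pachytene against 625 in leptotene/zygotene. Among 36 cytoskeletal genes 7 rose (19.4%, against 8.77% of all genes) and 2 fell (5.56%, against 9.36%), 6 and 1 under all 5 scalings. Actl7b and Actl9, actin-like proteins of the sperm head, had 3223 in pachytene against 99.6 in leptotene/zygotene and 1117 in pachytene against 28.0 (below the floor) in leptotene/zygotene, and Tubb3, a beta tubulin, had 66.2 (below the floor) in pachytene against 478 in leptotene/zygotene.

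X-linked genes fell at more than 4 times the share of autosomal genes. Of 436 measured 176 fell (40.4%), and beyond the limit 355 were lower and 16 higher (median -1.62). Of 12994 autosomal genes 1087 fell (8.37%), with a median of -0.19. The difference held for calls under all 5 scalings, with 115 X-linked genes (26.4%) and 456 autosomal ones (3.51%). The median of each of the 19 autosomes lay between -0.27 and -0.09, and the share that fell between 6.63% and 9.87%. Along the X chromosome, cut into 10 groups of neighbouring genes, the medians ran from -2.08 to -1.33.

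Decreases of X-linked and autosomal genes are given by signal at leptotene/zygotene, since the floor limits how large a decrease can be measured. Among genes at 4 to 8 times the floor the medians were -2.02 for X-linked and -0.63 for autosomal genes, and at 16 times or more -2.53 and -0.57. Among genes with 8 to 16 times the floor there, the median was -2.68 for 73 X-linked genes and -0.66 for 2081 autosomal ones, and 91.8% of the X-linked genes against 17.1% of the autosomal ones fell. Among genes at 2 to 4 times the floor, where no fall of 4-fold could be measured, the medians were -1.29 and -0.43. At 1 to 2 times the floor, where no decrease of 2-fold could be measured, they were -0.27 and -0.07. The X-linked genes with the largest falls were Taf7l and Rhox13, given above, Rps6ka6, a ribosomal S6 kinase, with 39.2 (below the floor) in pachytene against 666 in leptotene/zygotene, Fmr1nb, a cancer-testis gene, with 211 in pachytene against 2594 in leptotene/zygotene, and Taf1, the largest subunit of TFIID, with 56.6 in pachytene against 690.2 in leptotene/zygotene.

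**Figure D4:**
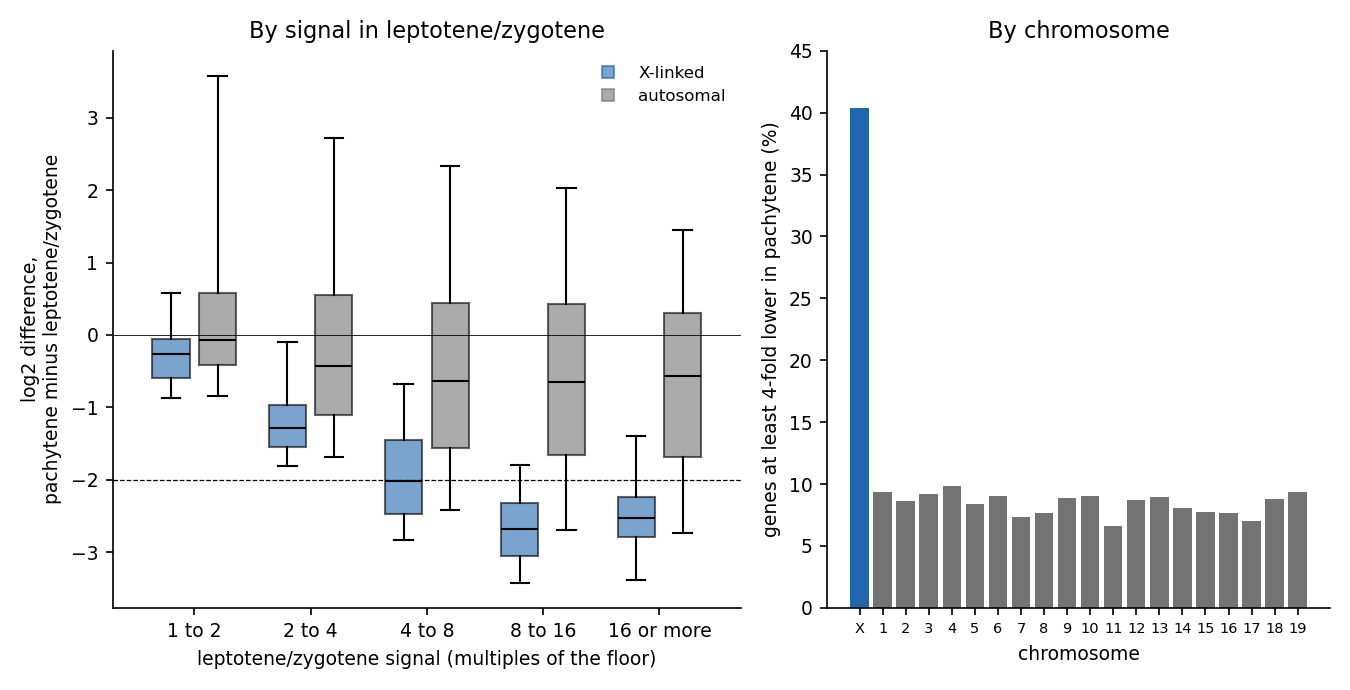
Left, log2 difference (pachytene minus leptotene/zygotene) of X-linked (blue) and autosomal (grey) genes by their leptotene/zygotene signal in multiples of the floor, with boxes for the quartiles, black lines for the medians and whiskers for the 5th and 95th percentiles. Right, the percent of measured genes at least 4-fold lower in pachytene by chromosome, with X at 40.4% and the autosomes between 6.63% and 9.87%.

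A single X-linked gene rose. Tsga8, a testis gene expressed late in spermatogenesis, had 956 in pachytene against 31.8 (below the floor) in leptotene/zygotene, at least 11.0-fold higher, and its probe set is of a kind that may read related transcripts. Of the 16 X-linked genes higher beyond the limit 15 had a leptotene/zygotene signal under 2 times the floor. Of 9 Y-linked genes on the arrays 7 were measured. Uba1y and Eif2s3y fell, as given above. Usp9y, a deubiquitinase, had 108 in pachytene against 426 in leptotene/zygotene and Zfy2, a zinc finger gene, had 58.2 (below the floor) in pachytene against 249 in leptotene/zygotene, both lower beyond the limit. Kdm5d, a histone demethylase, had 26.7 (below the floor) in pachytene against 96.0 in leptotene/zygotene, Orly had 152 in pachytene against 202 in leptotene/zygotene, and Tspy-ps had 139.6 in pachytene against 75.7 (below the floor) in leptotene/zygotene.

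Repeat measurements were available in 2 forms. For 2042 genes both designs carry probe sets, with different sequences. Of these 137 rose and 194 fell on the first design, and 76 rose and 157 fell on the second (6.71%, 9.50%, 3.72% and 7.69%). On both designs 38 rose and 39 fell, which is 27.7% of the rises and 20.1% of the falls on the first design, and 50.0% and 24.8% of those on the second. This split depended on the scaling: 39 rose and 19 fell under quantile normalization, 58 and 16 under median scaling, 56 and 12 with shared probe set scaling, and 36 and 30 as deposited. Only Mif, a cytokine gene, was past 4-fold in opposite directions. Across the 2042 genes the differences on the designs correlated with r = 0.50.

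Genes were ranked by the smaller of their differences on the designs. By this measure Cmtm2a, of the chemokine-like CKLF family, came first among the rises, with 2886 and 4635 in pachytene against 33.6 (below the floor) and 50.4 in leptotene/zygotene on designs 1 and 2. Itgae, an integrin alpha chain, had 2753 and 4447 in pachytene against 63.5 (below the floor) and 103 in leptotene/zygotene. Ropn1l, a ropporin relative of the radial spokes, had 11403 and 1616 in pachytene against 579.9 and 104 in leptotene/zygotene. Peli2, Papolb, Fank1, Clgn, Phf7, Agbl5, Chrac1, Ankrd36, Slc9b1, Stk35os1, Crat and Zbtb3 followed, and the smallest of their log2 differences was 2.95, for Zbtb3 on the second design.

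By the smaller of their differences, the falls were led by Klf6, Enah, Zmym3 and Mapk14. Klf6, an early response factor, had 92.3 and 44.8 (below the floor) in pachytene against 792 and 511 in leptotene/zygotene. Enah, an actin regulator, had 267 and 44.3 (below the floor) in pachytene against 1817 and 374 in leptotene/zygotene. Zmym3, an X-linked zinc finger gene, had 116 and 144 in pachytene against 1035 and 969 in leptotene/zygotene. Amhr2, the receptor of anti-Müllerian hormone, Mcm5, Acvr2b, Snx16, Atm, Slc38a2, Appl1, Thoc2, Bbx, Tnks2 and Dynlt3 came next, and the smallest of their log2 differences in size was -2.30, for Dynlt3 on the first design.

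The other repeat is of 100 identical probe sets on both designs, tested with limma. At a Benjamini-Hochberg adjusted p under 0.05, 20 were higher and 50 lower in pachytene (20% and 50%). Under quantile normalization they were 10 and 41, under median scaling 29 and 40, 42 and 40 with shared probe set scaling, and 14 and 38 as deposited. Differences on the designs correlated across these probe sets with r = 0.97, and probe sets are not independent replicates. Dhrs1, a short-chain dehydrogenase gene, had 1031 and 889 in pachytene against 171 and 144 in leptotene/zygotene, a log2 difference of 2.61 ± 0.22 (SE, adjusted p = 8.46e-11 by limma). Nmt1, an N-myristoyltransferase, had 4041 and 3956 in pachytene against 1327 and 1029.6 in leptotene/zygotene (1.77 ± 0.17, adjusted p = 9.93e-10 by limma). The X-linked Huwe1 had 223 and 240.4 in pachytene against 1681 and 1657 in leptotene/zygotene (-2.85 ± 0.16, adjusted p = 8.09e-14 by limma). Psap, prosaposin of the lysosome, had 1023 and 926 in pachytene against 4450 and 4828 in leptotene/zygotene (-2.25 ± 0.17, adjusted p = 1.97e-11 by limma). These 4 genes were named after their values were seen. Since it is not given whether the arrays of a group share an RNA sample, these p-values measure the spread between arrays, which may be technical.

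**Figure D5:**
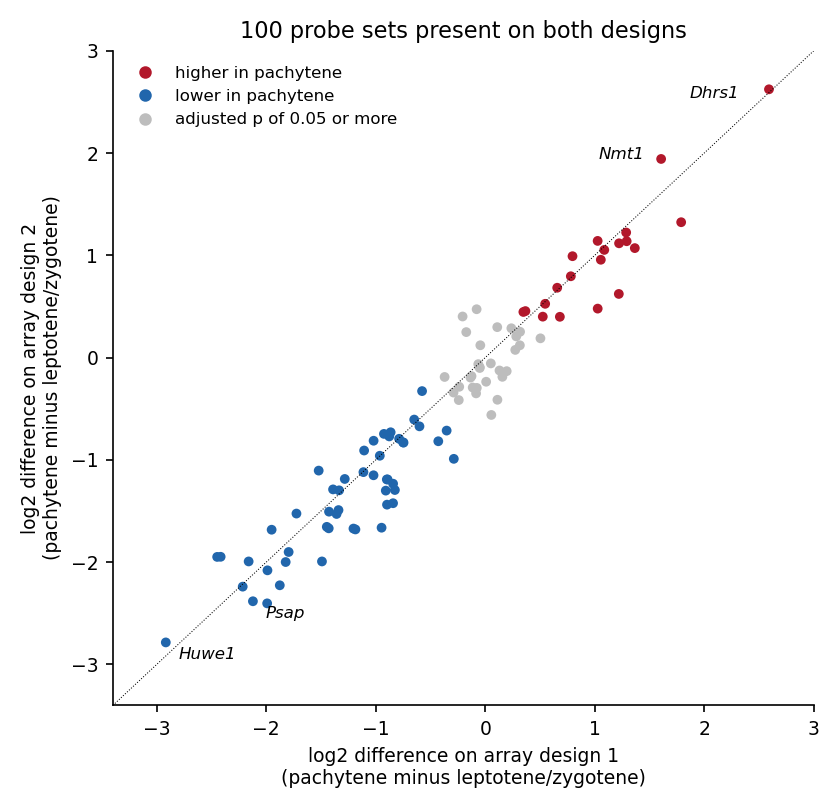
Log2 difference (pachytene minus leptotene/zygotene) on array design 2 (vertical) against design 1 (horizontal) for the 100 probe sets on both. Red points were higher and blue points lower in pachytene at a limma adjusted p under 0.05 (20 and 50 probe sets), and the points lie along the dotted line of equal differences.

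Several probe sets of a gene could also be compared. Of 13614 measured probe sets of the first design 5.96% were past 4-fold higher and 9.23% past 4-fold lower, and of 9279 of the second 8.38% and 6.94%. Of 5691 genes with 2 or more, 1523 had at least 1 past 4-fold, and in 136 of them all were higher and in 112 all lower. Cklf had 5 of 7 measured probe sets past 4-fold higher, Ptdss2 5 of 6, Atxn7l3b 4 of 4, Ccdc30 4 of 7 and Fank1 4 of 4. Tnrc6a, a partner of Argonaute, had 6 of 7 past 4-fold lower, Cnn3 5 of 6, Atp1b1 4 of 5, Ccn1 4 of 4 and Ccnd2 4 of 5. In 3 genes probe sets went past 4-fold in opposite directions. Mif had 974 and 579 in pachytene against 6339 and 75.4 in leptotene/zygotene for its 2 probe sets. Serp1, a translocon protein, had 306 and 5303 in pachytene against 1472 and 899 in leptotene/zygotene. For 0610010F05Rik they were 71.4 and 1491 in pachytene against 386 and 112 in leptotene/zygotene. These differences are therefore those of probe sets, not of the genes as a whole.

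The brightest of the genes that rose included both testis genes and genes found in somatic tissues. After Ldhc came Gstm5, a glutathione transferase, with 17371 in pachytene against 2979 in leptotene/zygotene, Rsph1, of the radial spoke head, with 15701 in pachytene against 2244 in leptotene/zygotene, and Phf7. Lyar, a nucleolar protein, had 14639 in pachytene against 1729.5 in leptotene/zygotene, and Pgp, a phosphatase of glycolytic by-products, had 13925 in pachytene against 1890.3 in leptotene/zygotene. Slc2a3 was given above, and Asrgl1, an asparaginase, had 13045 in pachytene against 625 in leptotene/zygotene. Limd2 had 12959 in pachytene against 2291 in leptotene/zygotene, and Fabp9, the fatty acid binding protein of the testis, had 12651 in pachytene against 1007 in leptotene/zygotene. Fabp9 and Rsph1 were below the floor in the somatic mixture, whereas Limd2 had 3295 there.

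The 10 brightest of the genes that fell were all above the floor in the somatic mixture. Erdr1 had 1067 in pachytene against 9419 in leptotene/zygotene, Chchd10, of the mitochondrial inner membrane, had 1872 in pachytene against 8372 in leptotene/zygotene, and Ctsl, a lysosomal protease, had 1945 in pachytene against 7849.8 in leptotene/zygotene. Ldhb, the heart lactate dehydrogenase, had 1721 in pachytene against 7019 in leptotene/zygotene. The glutathione transferase genes Gsta4 and Gstm1 had 1117 in pachytene against 6917 in leptotene/zygotene and 1157 in pachytene against 6634 in leptotene/zygotene, opposite to Gstm5. Cdk16, an X-linked kinase, had 1099.9 in pachytene against 6378 in leptotene/zygotene, Anxa2, a membrane-binding annexin, had 1409.7 in pachytene against 5645 in leptotene/zygotene, and Mif and Hspe1 were given above. Several of these were read by probe sets that may detect related transcripts.

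Genes that rose were in places neighbours. On the autosomes, where 9.03% of genes measured rose and 8.37% fell, 15 runs of 3 or more neighbours in gene order rose and 8 fell. The X chromosome is not in this count. How many runs such shares would give without any clustering was not computed. Adam18, Adam3, Adam5 and Adam32, sperm surface proteins on chromosome 8, rose with log2 differences between 4.22 and 6.23. Cklf, Cmtm2a, Cmtm1 and Cmtm2b, on the same chromosome, rose by between 2.38 and 6.92. The longest run held 7 genes on chromosome 15, from Macroh2a3 through the gasdermin-like genes Gsdmcl1 and Gsdmcl2. Such neighbours are often similar copies, whose probe sets may read each other's transcripts.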

How the data were processed

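RNA was amplified and hybridised as biotin-labelled cRNA to Affymetrix arrays of 2 designs, per the labels' protocols. The authors deposited 1 linear intensity for each probe set; the submitters' processing notes list GCOS 1, and the labels give no scaling target, background correction or detection calls. Each array was scaled to the mean 2% trimmed mean of the 5 arrays of its design. On the first design the floor was the 90th percentile of 71 probe sets for chemosensory receptors; on the second, with only 14 of these (a minimum of 20 was required), it was the median signal. Probe sets naming 1 gene were kept (20380 and 14661), and those naming several (691 and 245) or none (1555 and 7605) were left out. The probe set of highest mean signal stood for its gene, with the first design preferred where it lay above the floor there. The log2 difference is pachytene minus leptotene/zygotene within a design. The 100 shared probe sets were tested with limma 3.58.1 (R 4.3.3) over 10 arrays, and other steps used Python 3.11.15.

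The error of a difference is that of 1 design, from the root mean square gap between designs over the shared probe sets (over √2). With 1 array per group and design, the number of arrays limits the precision. Members, gene lists, pairs and named genes were chosen with earlier results of these data known. Genes named were, in each direction, the 15 with the largest smaller difference on both designs, the 10 brightest, the 5 with the most probe sets past 4-fold, up to 8 members of each list by size, the X-linked gene that rose and the 5 largest X-linked falls, all Y-linked genes and those with opposite probe sets. Dnah8, Dnah2, Dnah6, Dnah12, the members that did not reach 4-fold, the gene pairs, shared probe sets and neighbouring genes described were chosen after their values were seen. Alternatives were other scalings, floors, probe set rules and single designs. Promoter windows are RefSeq's (GRCm38.p6).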

Additional observations from a re-analysis of the deposited data

Results flagged for a closer look

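Probe sets that name no gene, which entered no comparison above, also held large differences. On the first design 25 of 697 such probe sets measured (3.59%) were at least 4-fold higher in pachytene, and on the second 108 of 3293 (3.28%). These shares lie below those of probe sets that name 1 gene (5.96% and 8.38%). At least 4-fold lower were 63 on the first design (9.04%) and 67 on the second (2.03%), against 9.23% and 6.94% of probe sets that name 1 gene.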

How the results depend on the processing

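The count of genes that rose kept within 1.5 times its value of 1186 under all alternatives but the single designs, with 624 on the first and 641 on the second. The count that fell (1266) was 843 with quantile normalization, 750 with median scaling, 606 with scaling to the shared probe sets, 780 with the floor at the 60th percentile, 641 with log2 of signal plus floor and 507 on the second design alone, which reads fewer genes. The X-linked median (-1.62) was -1.27 with quantile normalization, -1.32 with median scaling, -1.27 with shared probe sets, -1.32 with log2 of signal plus floor, -1.40 with the mean over probe sets and -1.31 on the second design. Genes past 4-fold on both designs (77) numbered 44 with the higher floor and 45 with log2 of signal plus floor. Atp1b1 turned positive (0.71) with plain probe sets only, and 0610010F05Rik (opposite probe sets) with the floor at the 60th percentile (3.73) and the mean over probe sets (0.65). Of the shared probe sets 70 were called, 51 with quantile normalization, 69 with median scaling, 52 as deposited, 82 with shared probe set scaling, 64 to 66 without 1 array, and 70 with the replicate block; the split by direction moved more, as given above. The replicate number is the array design, so same-numbered arrays share a platform. The labels tie it to no shared animal or batch, and the deviations of same-numbered samples correlated with r from -0.016 to 0.57 over 10 pairs of groups, not over 0.1 in every pair; the numbers were therefore not treated as pairs of samples. The cause of the other changes was not tested. Differences near the floor are understated, and falls from under 4 times the floor could not be measured at 4-fold.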
